A study of Homo sapiens with 6 samples.

Results

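The genes described here are 10 protein-coding genes for membrane-bound trypsin-like serine proteases and their inhibitors, taken by name from a table of 58735 genes, of which 19951 are protein-coding. They are the proteases TMPRSS11E, TMPRSS11D, TMPRSS2, TMPRSS3, TMPRSS4, ST14, HPN and PRSS8, and the inhibitors SPINT1 and SPINT2. The set was chosen from the same knockdown comparison that is described below, after TMPRSS11E had been seen among its largest increases, so the values of these 10 genes are a description, their p-values are not given, and whether a gene met the limits used for all genes is stated as a label that supports nothing. RNA-seq was performed in NCI-N87 cells, an established human gastric cancer line, to ask which transcripts change when SCAMP1, a secretory carrier membrane protein, is reduced. The control population, shCtrl (shNC in the labels), carried the empty lentiviral vector, and the knockdown population, shS1#1 (shScamp1 in the labels), carried an shRNA against SCAMP1. Both populations were infected in the presence of polybrene at 1 μl/ml and selected with puromycin at 2 μg/ml, and each gave 3 libraries of total RNA. The labels call the libraries biological replicates without stating separate infections, so p-values measure the spread between these libraries. With 1 shRNA, 1 cell line and a control vector without an shRNA, effects of SCAMP1 loss and of this shRNA cannot be told apart.

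Type II transmembrane serine proteases are anchored in the plasma membrane near their amino terminus and expose a trypsin-like catalytic domain to the outside of the cell. They are made as inactive zymogens and become active when cleaved just before the catalytic domain, and the catalytic serine lies in a short stretch of sequence that is alike in the whole family. In epithelia, matriptase (ST14) and the membrane-anchored prostasin (PRSS8) act together in barrier formation, and the Kunitz-type inhibitors HAI-1 (SPINT1) and HAI-2 (SPINT2) hold them in check.

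A codon at the active or reactive site of each protein is shown in its surroundings, to let the family likeness of the 10 transcripts be read directly. The sequences are coding strands, 5′ to 3′, from GENCODE 29 transcripts of GRCh38. Capitals mark the codon of the catalytic serine in the 8 proteases and, in SPINT1 and SPINT2, the codon of the arginine at the reactive site of the first Kunitz domain.
TMPRSS11E: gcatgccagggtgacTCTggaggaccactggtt
TMPRSS11D: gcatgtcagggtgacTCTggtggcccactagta
TMPRSS2: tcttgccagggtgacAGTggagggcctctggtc
TMPRSS3: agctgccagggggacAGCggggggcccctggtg
TMPRSS4: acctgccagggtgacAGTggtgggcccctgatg
ST14: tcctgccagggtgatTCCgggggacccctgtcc
HPN: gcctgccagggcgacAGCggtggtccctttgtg
PRSS8: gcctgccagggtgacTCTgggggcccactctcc
SPINT1: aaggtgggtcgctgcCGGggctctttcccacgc
SPINT2: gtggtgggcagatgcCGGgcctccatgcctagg

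The serine codon of TMPRSS11E lies at chr4:68496649-68496651, in the last of its 10 exons, and that of TMPRSS11D at chr4:67822490-67822492, also in the last of 10 exons. Codons of the TCN type encoded this serine in TMPRSS11E, TMPRSS11D, ST14 and PRSS8, AGT did so in TMPRSS2 and TMPRSS4, and AGC in TMPRSS3 and HPN. In all 8 proteases the stretch crossed an exon junction at the same place, with 24 of its 33 bases in the later exon. TMPRSS11E and TMPRSS11D shared 28 of 33 bases, as did TMPRSS3 and TMPRSS4, and the least alike pair, TMPRSS11D and TMPRSS3, shared 20.

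The promoter windows of TMPRSS11E, its family member TMPRSS11D and the inhibitor SPINT1 are shown because these 3 genes differed widely in level. Each window runs from 250 bases before to 50 bases after the RefSeq start site in GRCh38.p14, and capitals mark the motif matches that were found on either strand. The TMPRSS11E window is chr4:68447213-68447512 on the plus strand, that of TMPRSS11D chr4:67883953-67884252 on the minus strand, and that of SPINT1 chr15:40843798-40844097 on the plus strand.
TMPRSS11E promoter: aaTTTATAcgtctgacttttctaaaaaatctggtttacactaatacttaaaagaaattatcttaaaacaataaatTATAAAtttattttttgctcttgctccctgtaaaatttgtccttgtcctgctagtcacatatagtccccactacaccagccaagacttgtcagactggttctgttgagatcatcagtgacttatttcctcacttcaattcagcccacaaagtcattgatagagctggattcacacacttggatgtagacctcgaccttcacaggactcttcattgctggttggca
TMPRSS11D promoter: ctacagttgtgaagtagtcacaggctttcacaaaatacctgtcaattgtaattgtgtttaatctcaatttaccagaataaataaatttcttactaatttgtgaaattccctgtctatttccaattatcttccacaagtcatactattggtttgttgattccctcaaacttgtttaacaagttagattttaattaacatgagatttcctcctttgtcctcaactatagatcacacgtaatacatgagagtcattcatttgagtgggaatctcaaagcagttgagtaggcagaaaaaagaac
SPINT1 promoter: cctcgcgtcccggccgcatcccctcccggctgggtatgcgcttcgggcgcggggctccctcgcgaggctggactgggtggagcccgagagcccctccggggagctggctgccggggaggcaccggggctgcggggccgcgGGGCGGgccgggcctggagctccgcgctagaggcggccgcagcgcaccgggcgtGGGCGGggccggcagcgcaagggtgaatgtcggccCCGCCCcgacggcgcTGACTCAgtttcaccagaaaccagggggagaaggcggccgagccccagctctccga

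The motifs searched were the AP-1 site TGANTCA, the core of the interferon-stimulated response element, the GC box GGGCGG, the TATA box in the form TATAAA, and the forkhead motif written TGTTTAC. A match says only that these letters are somewhere in the window on either strand, and a missing match that they are not. The TMPRSS11E window had a GC content of 37% and held 2 matches to TATAAA. That motif was present at any position in 11.5% of the 35116 promoter windows of the reference. Both TMPRSS11E matches lie in the part of the window farthest from the start site, and the match written TTTATA is on the opposite strand. Neither lies next to the start site, and whether they act as a TATA box was not tested. The TMPRSS11D window, with 32.7% GC, held none of the motifs. The SPINT1 window shown had 77.7% GC, with 3 matches to GGGCGG, found in 45.0% of all windows, and 1 match to TGANTCA, found in 7.71%. A further RefSeq window of SPINT1, chr15:40844227-40844526, had 69.7% GC and held none of the motifs. The interferon-stimulated response element core was present in 3.57% and TGTTTAC in 3.42% of all windows. RefSeq windows were found for 5 of the 10 genes. That of HPN, a gene with 0 to 1 reads per library, had 71% GC and 2 matches to GGGCGG. That of TMPRSS3 had 56.3% GC and held none of the motifs. The RefSeq start sites of TMPRSS3 and HPN lie 7697 and 1215 bases inside the annotated genes. These 2 windows therefore do not describe the sequence at the annotated gene starts. A relation between motifs and level was not tested.

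Reads assigned to genes, recovered from the deposited FPKM (fragments scaled to gene length and sequencing depth), numbered 15064905 to 15988700 per shCtrl library and 14311769 to 14667628 per shS1#1 library. SCAMP1 itself, the targeted gene, stood at 12.6, 12.1 and 11.5 FPKM in shCtrl and at 1.70, 1.37 and 1.99 FPKM in shS1#1, and fell by 2.78 on the log2 scale (SE 0.14, limma adjusted p = 0.000248). In bulk RNA, fewer cells expressing a gene and less RNA per cell cannot be told apart. The epithelial and NCI-N87 markers were all measured, and 5 of 7 (CDH1, KRT8, KRT18, KRT19 and CEACAM5) rose, as did 8.82% of all genes fitted. ERBB2 and EPCAM did not pass the test, with log2 fold changes of 0.16 and -0.05. The summed level was 5430 to 5711 FPKM in shCtrl and 9071 to 10024 FPKM in shS1#1. Most of the difference came from KRT8 (means 1534 and 3002 FPKM), KRT18 (875 and 2000) and KRT19 (1688 and 2844). Of 9 markers of fibroblasts, immune and endothelial cells, 1 (COL1A1) passed the filter on low values and did not pass the test, the summed level was 0.824 to 1.16 FPKM in shCtrl and 1.21 to 1.40 FPKM in shS1#1, and COL1A2 and DCN were at 0 reads. Whether the marker levels have a part in the values below was not tested. The library shS1#1 replicate 2 stood apart, with 9.21% of reads from mitochondrial genes against 6.09% to 6.78% in the other libraries.

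Of the 10 genes, 7 averaged 0.5 FPKM or more across all 6 libraries and were fitted with the other genes, 15556 in all, and TMPRSS2, TMPRSS11D and HPN were under that limit. Fold changes are differences of mean log2(FPKM + 0.1), shS1#1 minus shCtrl, with the standard error from limma. A gene was called when its Benjamini-Hochberg adjusted p over all genes was under 0.05, and differentially expressed when its log2 fold change also exceeded 1 in size. By these limits 6 of the 7 genes were called, all higher in shS1#1, where 8.82% of all genes were called higher and 5.17% lower. TMPRSS11E was the 1 gene that was differentially expressed, where 2.42% of all genes were so in the higher and 0.746% in the lower direction. The 3 libraries of shS1#1 lay above the 3 of shCtrl without overlap for 6 of the 7 genes and for 20.4% of all genes. Because the genes were chosen from this comparison, nothing is read from these counts.

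**Figure D1:**
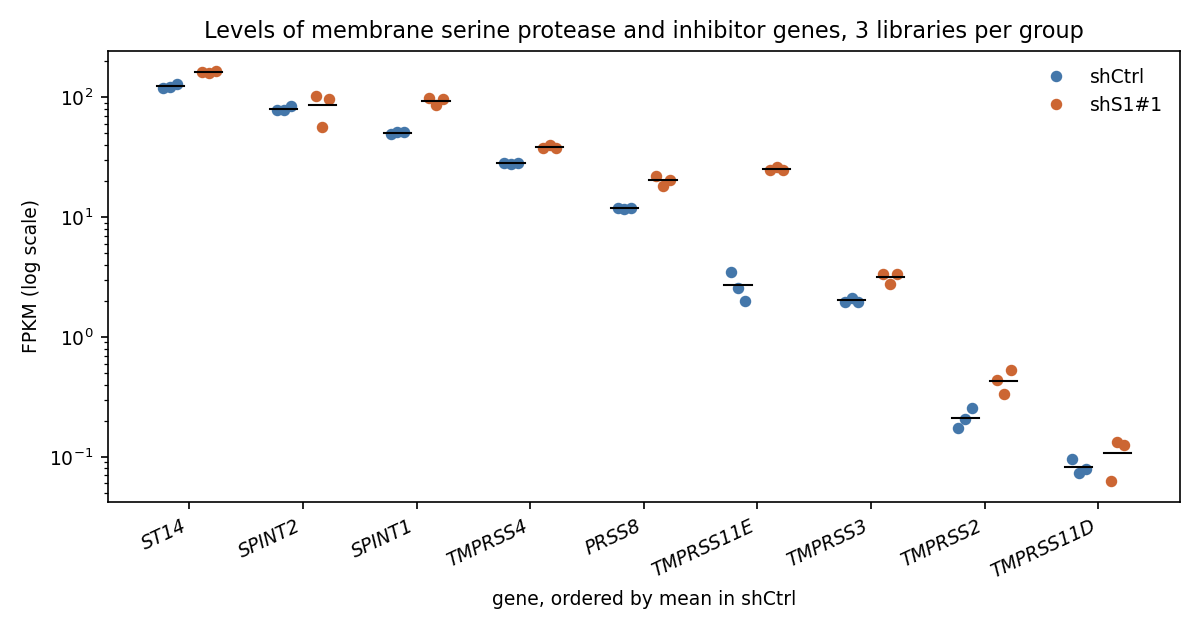
Level in FPKM (log axis) of the 10 genes other than HPN, which was at 0 in 5 libraries, with each point 1 of the 3 shCtrl or 3 shS1#1 libraries and each line a group mean. TMPRSS11E stands at 2.00 to 3.48 FPKM in shCtrl and at 24.5 to 26.2 FPKM in shS1#1, and the SPINT2 points of the groups overlap.

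TMPRSS11E encodes a type II transmembrane protease also known as DESC1, described in squamous epithelia. Its level was 3.48, 2.58 and 2.00 FPKM in the shCtrl libraries and 24.5, 26.2 and 24.7 FPKM in the shS1#1 libraries. All 3 knockdown libraries were far above all 3 controls, and the controls spread more widely in relation to their mean, with a coefficient of variation of 27.8% against 3.77%. These levels rest on 118, 92 and 66 reads in shCtrl and on 766, 768 and 772 reads in shS1#1. The log2 fold change was 3.21 (SE 0.19, 95% interval 2.76 to 3.67), a 9.27-fold difference on that scale, the second highest of 11529 protein-coding genes fitted.

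ST14, matriptase, at chr11:130159562-130210376, had the highest FPKM of the 10 genes in both populations. Its level was 120, 121 and 128 FPKM in shCtrl and 163, 158 and 165 FPKM in shS1#1, and the groups did not overlap. The log2 fold change of ST14 was 0.40 (SE 0.07), or 1.32-fold, from 8284 to 10486 reads per library. Its rank depends on the 1 length per gene by which FPKM are scaled, 4350 bases for ST14 and 5199 for SPINT2. The lengths of the transcripts expressed were not measured.

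PRSS8 (chr16:31131433-31135762), prostasin, a partner of matriptase held to the membrane by a lipid anchor, was measured at 11.9, 11.7 and 11.8 FPKM in shCtrl and at 22.2, 18.1 and 20.3 FPKM in shS1#1. The knockdown libraries were all higher, and more spread, than the nearly equal controls. The difference was 0.76 on the log2 scale (SE 0.09), or 1.70-fold.

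TMPRSS4 (chr11:118077012-118121890), a type II transmembrane protease that is expressed in several carcinomas, was at 28.3, 27.8 and 28.0 FPKM in shCtrl and at 38.0, 39.7 and 37.5 FPKM in shS1#1. Both groups were tight and did not overlap. Its log2 fold change was 0.45 (SE 0.06), or 1.37-fold.

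TMPRSS3 (chr21:42371837-42396846), whose loss causes hereditary deafness, was a low transcript at 1.96, 2.13 and 1.95 FPKM in shCtrl and at 3.32, 2.79 and 3.33 FPKM in shS1#1. Replicate 2 was the lowest of the knockdown libraries and still lay above every control. The log2 fold change was 0.61 (SE 0.10), or 1.53-fold, from 172 to 278 reads per library.

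The remaining proteases were hardly detected. TMPRSS2 (chr21:41464551-41531116), an androgen-regulated protease that primes viral glycoproteins, was at 0.175, 0.206 and 0.254 FPKM in shCtrl and at 0.437, 0.334 and 0.525 FPKM in shS1#1. The groups did not overlap, but the values rest on 17, 21 and 24 reads and on 39, 28 and 47 reads, and fitted without the filter the log2 fold change was 0.76 (SE 0.30). TMPRSS11D (chr4:67820876-67884032), the human airway trypsin-like protease, had 5, 4 and 4 reads in shCtrl and 3, 6 and 6 reads in shS1#1, so the groups overlapped and no difference was detectable at this depth. HPN (chr19:35040506-35066571), hepsin, an enzyme of liver and of prostate cancer, had 0 reads in 5 libraries and 1 read in shS1#1 replicate 3. A count of 0 allows up to 3 reads, which are worth 0.0533 to 0.0648 FPKM for HPN in these libraries, counting error only.

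Of the inhibitors, SPINT1 (HAI-1, chr15:40844018-40858207) was at 49.3, 51.1 and 51.6 FPKM in shCtrl and at 98.2, 85.9 and 97.2 FPKM in shS1#1. All knockdown libraries were above all controls. The log2 fold change was 0.88 (SE 0.08, 95% interval 0.70 to 1.07), or 1.85-fold, just under the limit of 1 that TMPRSS11E exceeded. TMPRSS11E is thus the gene inside that limit, and SPINT1 and PRSS8 are the nearest outside it.

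SPINT2 (HAI-2, chr19:38244035-38292614) was the gene whose groups overlapped among the 7 fitted. It stood at 77.9, 77.7 and 85.3 FPKM in shCtrl and at 103, 56.5 and 97.5 FPKM in shS1#1. Replicate 2 was below every control, whereas replicates 1 and 3 were above them. The log2 fold change was 0.05 with a 95% interval from -0.51 to 0.60, and without shS1#1 replicate 2 it was 0.32. In that replicate SPINT2 lay 0.82 log2 units under the mean of the other knockdown libraries (a deviation of -0.82), and 6.97% of the genes fitted deviated further down. The part that this library's mitochondrial share has in the value was not tested. AC011479.1, at 0 reads in all libraries, overlaps SPINT2 on the same strand, so reads shared by both genes may have been left out of the SPINT2 value.

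**Figure D2:**
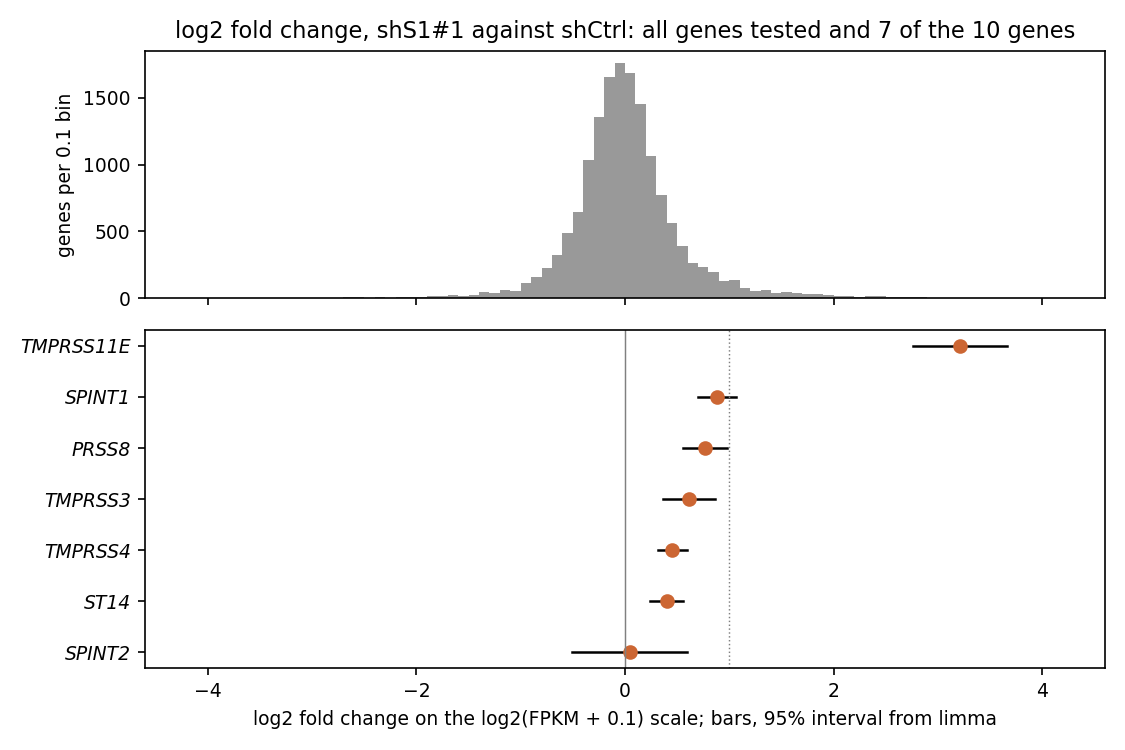
Log2 fold change, shS1#1 against shCtrl, of the 7 fitted genes with bars for the 95% interval from limma, under the distribution over all 15556 genes, and a dotted line at 1. TMPRSS11E stands at 3.21, and the other 6 genes lie between 0.05 and 0.88.

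Fold changes of the 7 genes had a median of 0.61, where the median of all genes was -0.02. In shCtrl the order by FPKM, which depends on the gene lengths used, was ST14, SPINT2, SPINT1, TMPRSS4, PRSS8, TMPRSS11E, TMPRSS3, TMPRSS2, TMPRSS11D and HPN. TMPRSS11E and TMPRSS3 were the neighbours whose libraries overlapped. In shS1#1 SPINT1 stood before SPINT2, with overlapping libraries, and TMPRSS11E before PRSS8.

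The FPKM of proteases and inhibitors can be set side by side within each library. FPKM are scaled by 1 length per gene, such as 2138 bases for TMPRSS11E and 9948 for TMPRSS4. The size of sums, shares and ratios depends on these lengths, which are the same in both groups. These are RNA levels, and protein and activity of the proteases and inhibitors were not measured. The summed level of the 8 proteases was 168 ± 3.80 FPKM (SD, n = 3) in shCtrl and 250 ± 3.28 FPKM in shS1#1 (249.6 before rounding), and that of both inhibitors 131 ± 5.16 and 179 ± 32.2 FPKM. In shS1#1 replicates 1, 2 and 3 the inhibitor sum was 201, 142 and 195 FPKM. The ratio of the protease sum to the inhibitor sum was 1.28 ± 0.0234 in shCtrl and 1.42 ± 0.263 in shS1#1. It was 1.25, 1.73 and 1.29 in shS1#1 replicates 1, 2 and 3, and the groups overlapped. ST14 relative to its inhibitor SPINT1 was 2.36 to 2.48 in shCtrl and 1.66 to 1.84 in shS1#1, so that SPINT1 was higher in relation to ST14 in every knockdown library. ST14 relative to SPINT2 went the other way, at 1.53 ± 0.0273 in shCtrl and from 1.58 to 2.80 in shS1#1 without overlap, with the highest value in replicate 2. PRSS8 relative to SPINT1 was 0.233 ± 0.00735 in shCtrl and 0.215 ± 0.00965 in shS1#1. The ranges, 0.229 to 0.242 and 0.208 to 0.226, were close without overlapping. SPINT1 relative to SPINT2 was 0.632 ± 0.0268 in shCtrl and ranged from 0.954 to 1.52 in shS1#1, the highest value being that of replicate 2.

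**Figure D3:**
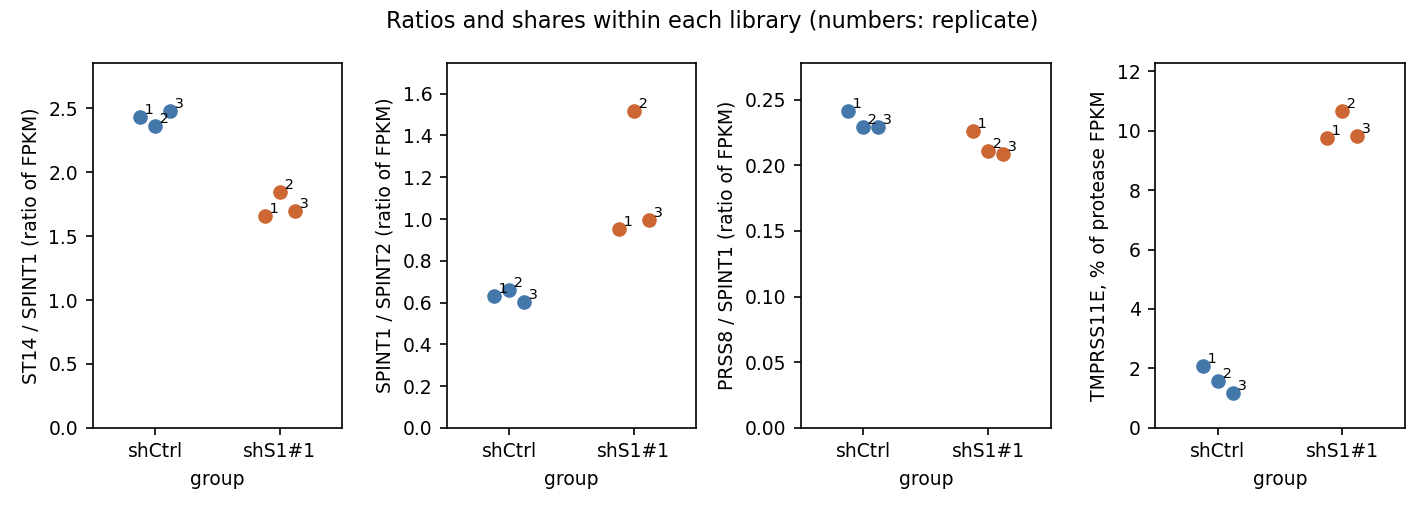
Ratios of FPKM (ST14 to SPINT1, SPINT1 to SPINT2, PRSS8 to SPINT1) and the share of TMPRSS11E in the summed protease level in percent, each point 1 library with its replicate number. The ratio of ST14 to SPINT1 lies at 2.36 to 2.48 in shCtrl and at 1.66 to 1.84 in shS1#1.

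The make-up of the summed protease FPKM also differed. ST14 made up 73.3% ± 1.04 of the summed protease level in shCtrl and 65.0% ± 0.577 in shS1#1. TMPRSS11E made up 1.16% to 2.10% in shCtrl and 9.75% to 10.7% in shS1#1. The FPKM of TMPRSS4 was 8.13 to 14.0 times that of TMPRSS11E in shCtrl and 1.53 ± 0.0185 times in shS1#1.

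TMPRSS11E lies in a cluster of related protease genes on chromosome 4, at chr4:68447449-68497604, and the other members of that cluster were next to silent. TMPRSS11A had 0 to 3 reads per library, TMPRSS11B 0 to 1, TMPRSS11F 0 to 2 and TMPRSS11D 3 to 6, at distances of 483, 202, 318 and 563 kb. The neighbour YTHDC1, 97.4 kb away, did not pass the test (log2 fold change -0.07, limma adjusted p = 0.637). The high level in shS1#1 was therefore seen at 1 gene of the 5 in the cluster.

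TMPRSS2 has neighbours that rose. MX1, an interferon-induced GTPase gene 5337 bases away, was at 2.94, 2.95 and 2.78 FPKM in shCtrl and at 16.3, 19.3 and 16.1 FPKM in shS1#1, a log2 fold change of 2.53. RIPK4, a kinase of epidermal differentiation 208 kb away, was at 8.10, 7.26 and 7.91 FPKM and at 25.2, 26.4 and 25.2 FPKM, a log2 fold change of 1.71. Next to PRSS8, KAT8 ends 40 bases away on the other strand, tail to tail with PRSS8, and did not pass the test (log2 fold change -0.19, limma adjusted p = 0.483). The antisense genes SPINT1-AS1, with 54 to 141 reads per library, and UBA6-AS1 at TMPRSS11D, with 44 to 103, overlap genes described here on the opposite strand. So do the protein-coding gene SMIM35 at TMPRSS4, with 20 to 43 reads, and AC009088.3 within PRSS8, with 0 reads. As counting is not stated to use strand, reads in the stretches that such pairs share cannot be told apart. SPINT1-AS1 ends at base 40844387 and SPINT1 starts at 40844018, so the shared stretch is the start of SPINT1. For UBA6-AS1 and TMPRSS11D, the antisense gene had more reads than the protease.

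The wider pathway was followed in 3 lists of 51 genes, of which 20 were fitted. Of these, 11 rose, 1 fell and 8 did not pass the test, and their median was 0.56 on the log2 scale. Over all genes, 8.82% were called higher and 5.17% lower, and the median was -0.02. The lists were chosen with earlier results of these data known.

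Among 15 other trypsin-like proteases, 5 were fitted and 2 rose. PRSS27, a trypsin-like protease also called marapsin, went from 1.09 ± 0.0447 to 4.14 ± 0.908 FPKM (SD, n = 3), a log2 fold change of 1.81 (SE 0.17, limma adjusted p = 0.00186). TMPRSS13, a type II transmembrane protease of epithelia, went from 7.09 ± 0.104 to 14.7 ± 1.19 FPKM, a log2 fold change of 1.04 (SE 0.08, limma adjusted p = 0.000877). Both were differentially expressed, like TMPRSS11E. PRSS22, the most abundant of the list, was at 34.9, 35.8 and 36.9 FPKM in shCtrl and at 80.7, 38.9 and 79.6 FPKM in shS1#1, a log2 fold change of 0.81 (SE 0.28, limma adjusted p = 0.110). As for SPINT2, shS1#1 replicate 2 was the low library, and without it the value was 1.16 with a limma adjusted p of 8.05e-05. TMPRSS9 and TMPRSS5 had log2 fold changes of 0.30 and 0.08, and 10 genes were under the filter. Of these 10, TPSG1, a membrane-anchored tryptase, had 10, 9 and 6 reads in shCtrl and 0, 1 and 0 reads in shS1#1, and fitted without the filter it was called lower (limma adjusted p = 0.0237), the 1 gene of the 3 lists under the filter that was called in that fit.

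Of 18 other protease inhibitors, 6 were fitted, 4 rose and 2 did not pass the test. SERPINA1, alpha-1-antitrypsin, was at 9.31, 9.71 and 9.15 FPKM in shCtrl and at 18.8, 21.0 and 20.1 FPKM in shS1#1, a log2 fold change of 1.08 (SE 0.07, limma adjusted p = 0.000603). SLPI, a secreted inhibitor of leukocyte proteases, was at 51.9 ± 1.33 and 92.0 ± 11.2 FPKM, a log2 fold change of 0.82 (SE 0.10, limma adjusted p = 0.00475). Both are secreted, and the groups of neither overlapped. APLP2 and APP, membrane proteins with a Kunitz domain in some isoforms, had smaller log2 fold changes of 0.36 and 0.27 (limma adjusted p = 0.0140 and 0.0343). PI3 and PAPLN did not pass, with log2 fold changes of 0.71 and -0.46.

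Of 18 substrates and receptors, 9 were fitted, 5 rose and 1 fell. FLG, profilaggrin, which is processed through the matriptase and prostasin pathway in skin, was at 0.515 ± 0.0639 and 1.44 ± 0.305 FPKM, a log2 fold change of 1.31 (SE 0.21, limma adjusted p = 0.0124). SCNN1A, a subunit of the epithelial sodium channel that prostasin activates, was at 28.8 and 42.3 FPKM, a log2 fold change of 0.55 (SE 0.06, limma adjusted p = 0.00310), while the partner subunits SCNN1B and SCNN1G had 0 to 2 and 0 to 1 reads. MET, the receptor of hepatocyte growth factor, and CDCP1 had log2 fold changes of 0.66 and 0.57 (limma adjusted p = 0.0421 and 0.0399), and HGF itself had 0 to 2 reads. F2RL1, the protease-activated receptor PAR2, was the gene that fell, from 7.05 ± 0.374 to 5.74 ± 0.240 FPKM, a log2 fold change of -0.29 (SE 0.07, limma adjusted p = 0.0489). MST1R, EPCAM and SCNN1D did not pass, with log2 fold changes of 0.14, -0.05 and -0.45. Without any 1 of the shCtrl libraries, or without shS1#1 replicate 3, 5 or 6 genes of the 3 lists were called in place of 12. PRSS27, TMPRSS13, SERPINA1, SLPI and SCNN1A were called in each of these fits, and APP, APLP2, MET, CDCP1 and F2RL1 in none.

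**Figure D4:**
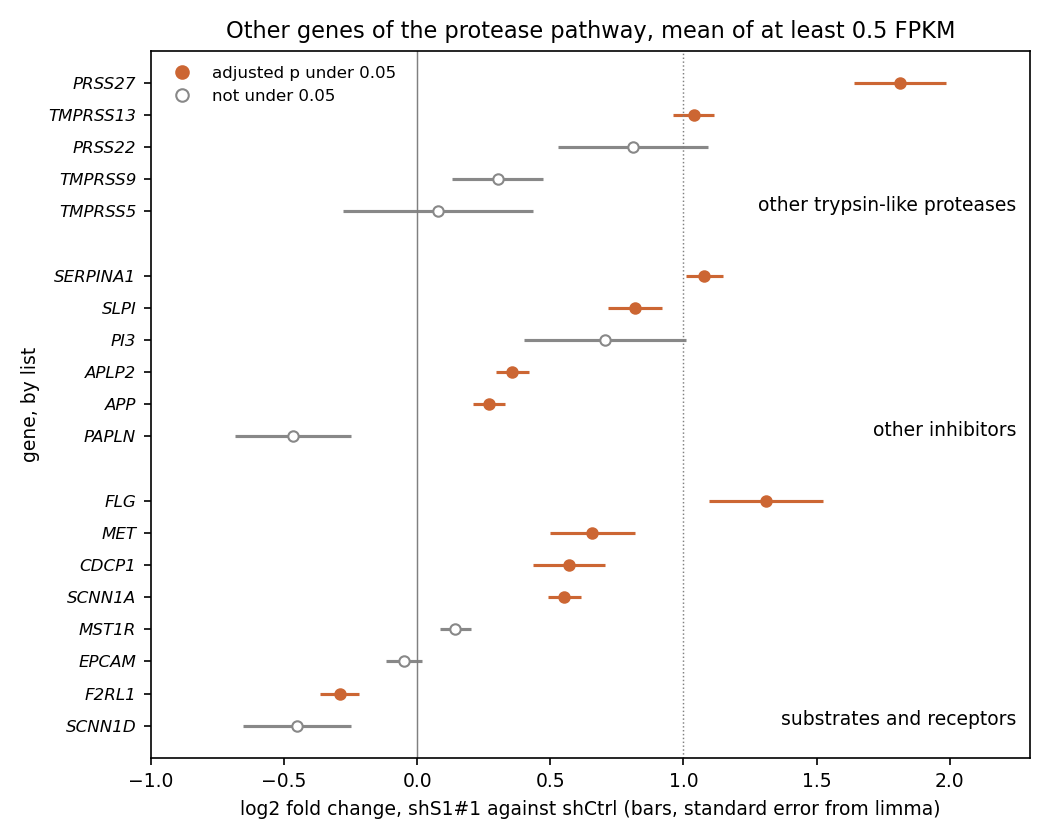
Log2 fold change, shS1#1 against shCtrl, with the standard error from limma for 19 of the 20 fitted genes of the 3 pathway lists, filled where the adjusted p was under 0.05, with a dotted line at 1. PRSS27 is highest at 1.81, and F2RL1 at -0.29 is the filled point below 0.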

How the data were processed

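RNA-seq was available for 3 shCtrl and 3 shS1#1 libraries of NCI-N87 cells. The deposited values were FPKM, which the authors computed for every gene in each library, and the submitters' processing notes name HISAT2 2.0.5, featureCounts 1.5.0-p3, DESeq2 1.20.0 and the build hg38 without their roles. Gene coordinates equalled those of GENCODE 29 for all 58735 genes. FPKM times gene length gave whole reads for 100% of values above 0 (tolerance 0.02 reads). Use of strand in counting is not given in the sources used here. Genes averaging 0.5 FPKM or more were fitted as log2(FPKM + 0.1) in R 4.3.3 with limma 3.58.1 (lmFit, and eBayes with a trend), with Benjamini-Hochberg adjustment over 15556 genes. Fold changes on that scale understate those of low genes. The design allowed for counts, but limma on log values suits FPKM, and recovered reads were analysed with voom as an alternative. The fit was tested on simulated data. The 10 genes, the gene lists and the tests were chosen with earlier results of these data known. Genes named were the 10 genes, SCAMP1, their neighbours and overlapping genes, and, of each list, the called genes and the most abundant; others were named after their values were seen. Of the list genes, 1 that was fitted and counted is not reported here by name. Alternatives covered the pseudocount, filter, scaling, variance trend, gene types, a replicate block, and each library left out. A GC correction and unadjusted p-values were added after seeing the data. Tables were made with pandas 2.3.3 and numpy 2.4.6 (Python 3.11.15).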

Additional observations from a re-analysis of the deposited data

How the results depend on the processing

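The 10 genes were chosen from this comparison, so counts of them are a description. TMPRSS11E ranged from 2.85 to 3.41 (log2) over 16 alternatives. Over all genes, 492 were differentially expressed, 248 with a pseudocount of 1, and 364 to 542 with a library left out. Genes at an adjusted p under 0.05 numbered 808 to 4330 with a library left out. Of the 10 genes, 6 were called, and 4 to 7 with a library left out (7 without shS1#1 replicate 2, 4 without any 1 shCtrl library or shS1#1 replicate 3); ST14 and TMPRSS3 were those lost. Of the list genes, 12 were called, and 5 to 14 with a library left out. SPINT2 changed sign with voom (-0.029), and ranged from -0.11 to 0.32 with a library left out (-0.11 without shS1#1 replicate 1, -0.07 without replicate 3). Replicate numbers did not pair the libraries (correlations of deviations -0.035, 0.032 and 0.067). With a replicate block, 4 of the 10 genes (ST14 and TMPRSS3 not) and 6 of the list genes were called. Leaving a library out also means that fewer libraries are fitted, and the causes of these changes were not tested. Alternatives added after seeing the data gave 682 differentially expressed genes, 6 of the 10 genes and 14 list genes with unadjusted p-values, and 502, 6 and 12 with the GC trend removed. Depth limits TMPRSS2, TMPRSS11D and HPN.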

Other observations

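Among the protein-coding genes fitted, those whose log2(FPKM + 0.1) followed TMPRSS11E most closely over the 6 libraries were MFAP5, SLC37A1, SP100, SLC37A2 and CTSS. Each had a Pearson correlation of 0.998, given as a description, since the points share their libraries and fall into the 2 groups. MFAP5, a microfibril protein, was at 1.30 ± 0.223 FPKM in shCtrl and at 4.12 ± 0.0955 FPKM in shS1#1 (SD, n = 3), a log2 fold change of 1.60. CTSS, the lysosomal protease cathepsin S, was at 3.95 ± 0.456 and 8.13 ± 0.188 FPKM, a log2 fold change of 1.03. Among the genes described above, the same measure was 0.988 for TMPRSS4, 0.971 for SPINT1, 0.965 for PRSS8, 0.957 for ST14, 0.945 for TMPRSS3 and 0.0445 for SPINT2.

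The library shS1#1 replicate 2 differed from the other knockdown libraries in a way weakly related to GC content, with a correlation of -0.138 over genes. With genes in 5 equal classes from low to high GC, its median log2 deviation was 0.0891, 0.0358, 8e-04, -0.0749 and -0.166. SPINT2, with 55.6% GC, deviated by -0.82, PRSS22 by -1.04, SPINT1, with 60.4% GC, by -0.19 and ST14, with 62.8%, by -0.05. With the GC trend removed from each library, an alternative added after seeing the data, the log2 fold change, shS1#1 against shCtrl, was 0.08 for SPINT2 and 0.87 for PRSS22. In the main fit these were 0.05 and 0.81.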
